A study of Mus musculus with 8 samples.

Results

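The urea cycle genes were defined here as 8 genes by symbol: Cps1, Otc, Ass1, Asl and Arg1, which encode the enzymes of the cycle, Nags, which encodes the enzyme that makes its activator, and Slc25a15 and Slc25a13, which encode the mitochondrial carriers of ornithine and aspartate. All 8 were among the 15210 genes listed in the deposited table, and all 8 passed the filter on low values, which 12008 genes passed. RNA was sequenced from livers of 4 mice given MOCA (4,4'-methylenebis(2-chlorobenzenamine), an aromatic amine used as a curing agent for polyurethane) at 0.05% for 4 weeks and of 4 control mice given none (0%). All 8 mice were female F1-TKm30 animals, aged 17 or 21 weeks, with no label that ties an age to a mouse. A treatment label names C57BL mice instead, and the column names of the deposited values begin with Wild. The strain label is followed here. The line has the immunodeficient NOG background, and mice of both groups carry a mutant clone 30 of the herpes simplex virus thymidine kinase (HSVtk) cDNA driven by the transthyretin enhancer and promoter, which are active in hepatocytes. The sources used here do not state the route of dosing.

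The urea cycle turns ammonia, which is toxic, into urea, which the kidney excretes, and it runs in full mainly in the hepatocytes around the portal vein. Carbamoyl phosphate and citrulline are made inside the mitochondrion; citrulline then leaves for the cytosol, where aspartate adds a further nitrogen, arginine is formed and arginase splits it into urea and ornithine, which returns to the mitochondrion. Ammonia that escapes is captured as glutamine by hepatocytes around the central vein. Hormones that act in fasting and the supply of dietary protein are known to set the amounts of these enzymes together.

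No urea cycle gene showed a difference between MOCA and control livers that passed the test against the spread between mice. By limma with Benjamini-Hochberg adjustment over all genes, 0 were higher and 0 were lower at an adjusted p under 0.05, a call that 0.666% of all tested genes received. At an unadjusted p under 0.05 the count was 1 of 8 (Slc25a15), against 17.5% of all tested genes. The count tests on reads recovered from the values also called 0 of the 8, edgeR against 0.675% of the genes it tested and DESeq2 against 3.61%. In each of the 8 genes the MOCA and control values overlapped, whereas they did not overlap in 10.5% of tested genes. The log2 fold changes ran from -0.23 (Ass1) to 0.25 (Slc25a15), 3 positive and 5 negative, with a median of -0.04 against 0.0051 over all tested genes. Their median size regardless of sign was 0.13, against 0.11 over all tested genes.

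Values are read counts per gene relative to library size, adjusted by the authors with the trimmed mean of M values (TMM-scaled CPM), in which 1 read was worth 0.0581 to 0.0648. Libraries held 15024945 to 15970453 reads in the listed genes in MOCA mice and 16077424 to 17101844 in control mice. Each MOCA library thus held fewer such reads than each control library, and reads outside the listed genes are not known. Together the 8 genes took 0.834% to 0.977% of the listed-gene reads of a MOCA library and 0.896% to 1.02% of those of a control library. The members with the most and the fewest reads were Cps1, with 75237 to 99553 reads per library, and Nags, with 617 to 908. The labelled tissue carried hepatocyte markers: 6 of 6 were tested and 0 were called, and their summed level was 91915 to 105083 in MOCA livers and 105625 to 124481 in control livers, without overlap. The summed erythroid markers were 472 to 525 in MOCA and 252 to 443 in control livers, and the summed stellate cell markers 377 to 457 and 461 to 508, again without overlap. No gene was called among the 4 of 6 erythroid and 6 of 6 stellate cell markers tested. Kupffer cell, sinusoidal endothelial and bile duct marker sums overlapped. Of single tested genes, 10.5% did not overlap between the groups, and no such share was obtained for sums. Such a sum is set mainly by its most abundant genes, and the hepatocyte sums were separated by little (105083 against 105625). Hnf4a, 1 of the 6 hepatocyte markers, was 663 to 1006 in MOCA and 869 to 1080 in control livers, with overlap. The other hepatocyte markers are not given singly. None of 6 lymphocyte markers was listed, and the 3 listed neutrophil markers summed to 0.509 to 1.10 in MOCA and 0.37 to 1.10 in control livers. The part of these marker differences in the values below was not tested, and in whole liver fewer cells of a type and less RNA per cell cannot be told apart.

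**Figure D1:**
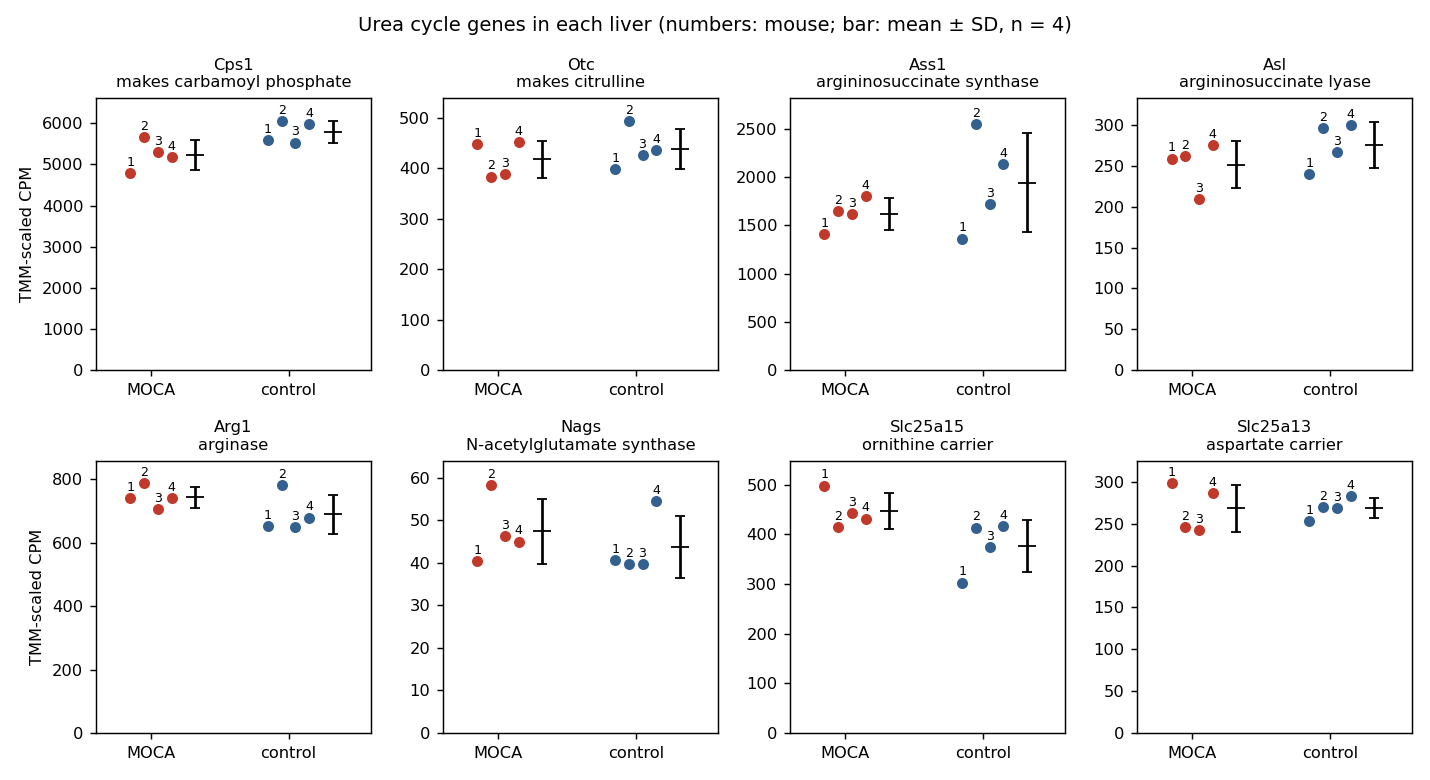
Value of each urea cycle gene (TMM-scaled CPM, y axes from 0) in each of 4 MOCA mice (red, left) and 4 control mice (blue, right), numbered by mouse, with mean ± SD as a black bar. Every gene shows overlapping groups, and Ass1 in control livers has the widest spread, from 1361 to 2551.

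Of the mitochondrial enzymes, Cps1 (chromosome 1, 67122426 to 67231267), carbamoyl phosphate synthetase, which fixes ammonia and is the rate-limiting enzyme of the cycle, had the highest TMM-scaled CPM of the 8. It was 4788, 5668, 5299.9 and 5185 in MOCA mice 1 to 4, against 5586, 6062, 5529 and 5974 in control mice 1 to 4. MOCA mice 1, 3 and 4 lay below every control mouse, and MOCA mouse 2 lay among them. The means were 5235 ± 362 in MOCA and 5788 ± 269 in control livers (SD, n = 4 each). The log2 fold change was -0.15 (SE 0.11, limma adjusted p = 0.509), with a 95% interval from -0.38 to 0.09, which is a change between -23.0% and 6.1%.

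Otc (chromosome X, 10252230 to 10321024), ornithine transcarbamylase, joins carbamoyl phosphate to ornithine to give citrulline. Its values were 447, 383, 388 and 451 in MOCA mice 1 to 4 and 398, 493, 426 and 436 in control mice 1 to 4. MOCA mice 2 and 3 lay below every control mouse, while MOCA mice 1 and 4 exceeded all control mice but mouse 2. Its log2 fold change was -0.07 (SE 0.09, limma adjusted p = 0.728), with a 95% interval from -0.27 to 0.12, and it ran from -0.12 without control mouse 1 to -0.0126 without control mouse 2.

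Nags (chromosome 11, 102145513 to 102149528) encodes N-acetylglutamate synthase, whose product is the obligate activator of carbamoyl phosphate synthetase. It had 40.3, 58.1, 46.2 and 45.0 in MOCA mice 1 to 4, against 40.6, 39.7, 39.6 and 54.5 in control mice 1 to 4. One animal in each group was high, MOCA mouse 2 and control mouse 4, and the other values lay between 39.6 and 46.2. The log2 fold change of 0.12 (SE 0.13, 95% interval -0.16 to 0.40) had a limma adjusted p of 0.672, and it was 0.23 without control mouse 4 and 0.02 without MOCA mouse 2. Nags overlaps an antisense gene, Gm11586, by 698 bases in the GENCODE M21 annotation of the same build. Gm11586 is not among the listed genes and so has no values here. The libraries were directional, but the sources used here do not state whether the counting used strand. Whether the Nags values include reads of Gm11586 therefore cannot be told.

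In the cytosol, Ass1 (chromosome 2, 31470270 to 31520670), argininosuccinate synthase, condenses citrulline with aspartate, and it had the widest spread of the members among control mice. Its values were 1409.6, 1643, 1616 and 1802 in MOCA mice 1 to 4, against 1361, 2551, 1721 and 2135 in control mice 1 to 4. The control mice held both the lowest and the highest value, and all MOCA mice fell within their range. The means were 1618 ± 161 in MOCA and 1942 ± 514 in control livers (SD, n = 4 each), coefficients of variation of 9.96% and 26.5%. The log2 fold change was -0.23 (SE 0.17, limma adjusted p = 0.514), with a 95% interval from -0.60 to 0.14, and it was -0.09 without control mouse 2 and -0.39 without control mouse 1.

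Asl (chromosome 5, 130011258 to 130024381), argininosuccinate lyase, releases arginine and fumarate. It had 259, 262, 209 and 275 in MOCA mice 1 to 4 and 239.7, 296, 267 and 299.7 in control mice 1 to 4. MOCA mouse 3 lay below every control mouse, and the other MOCA mice fell within the control range. The log2 fold change of -0.13 (SE 0.10, 95% interval -0.36 to 0.09) had a limma adjusted p of 0.528 and was -0.05 without MOCA mouse 3.

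Arg1 (chromosome 10, 24915207 to 24927470), the liver arginase that releases urea, had 741, 788, 706 and 741 in MOCA mice 1 to 4, against 652, 781, 649 and 679 in control mice 1 to 4. Each MOCA value was above control mice 1, 3 and 4, and control mouse 2 lay above all MOCA mice but mouse 2. The means were 744 ± 33.6 in MOCA and 690.4 ± 61.9 in control livers (SD, n = 4 each). Its log2 fold change was 0.11 (SE 0.08, limma adjusted p = 0.516), with a 95% interval from -0.07 to 0.29, and it was 0.17 without control mouse 2.

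Of the carriers, Slc25a15 (ORNT1; chromosome 8, 22375550 to 22398621) takes ornithine into the mitochondrion in exchange for citrulline and was the 1 member with an unadjusted limma p under 0.05. Its values were 498, 414, 443 and 431 in MOCA mice 1 to 4, against 302, 414, 375 and 416 in control mice 1 to 4. MOCA mice 1, 3 and 4 lay above every control mouse, and MOCA mouse 2, at 413.8, lay between the 2 highest control values, 413.5 and 415.9. The means were 446.6 ± 36.3 in MOCA and 376.7 ± 52.9 in control livers (SD, n = 4 each), a log2 fold change of 0.25 (SE 0.11) with a 95% interval from 0.02 to 0.49, or 1.39% to 40.1% higher. Its unadjusted limma p was 0.0359 and its adjusted p over all genes 0.253, so it did not pass; edgeR and DESeq2 gave adjusted p of 0.267 and 0.244. Without control mouse 1, the lowest of the 8, the log2 fold change was 0.15. Slc25a2, which in humans encodes a second mitochondrial ornithine carrier (ORNT2), was below the minimum for testing, with 0.512 ± 0.234 in MOCA and 0.713 ± 0.249 in control livers (SD, n = 4 each).

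Slc25a13 (chromosome 6, 6041218 to 6217304) encodes citrin, which exports aspartate from the mitochondrion for argininosuccinate synthesis. It had 298, 246, 243 and 287 in MOCA mice 1 to 4 and 253, 269, 269 and 283 in control mice 1 to 4. MOCA mice 1 and 4 lay above every control mouse and MOCA mice 2 and 3 below every control mouse. The means were 268.5 ± 28.3 in MOCA and 268.6 ± 12.2 in control livers (SD, n = 4 each), a log2 fold change of -0.0056 (SE 0.08, 95% interval -0.19 to 0.18, limma adjusted p = 0.981), a sign that turned with columns scaled to equal sums. Slc25a12, which encodes the related carrier aralar of other tissues, had 10.5 ± 0.8291 in MOCA and 10.7 ± 1.34 in control livers, and its log2 fold change of -0.02 (limma adjusted p = 0.941) also changed sign with equal column sums.

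**Figure D2:**
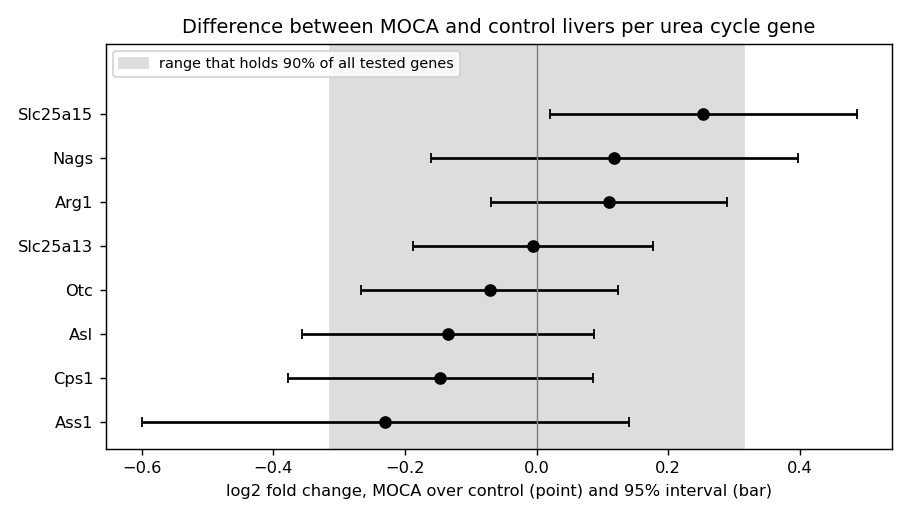
Log2 fold change (MOCA over control, x axis) of each urea cycle gene with its 95% limma interval, and in grey the range that holds 90% of all tested genes (up to 0.31 in either direction). The interval of Slc25a15 (0.02 to 0.49) lies above 0 and those of the other 7 genes span it.

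The members with the largest positive and the most negative log2 fold change over all 8 mice in limma, Slc25a15 and Ass1, are shown by their promoters (RefSeq, build GRCm38.p6, the mm10 assembly), from 250 bases before to 50 after each annotated start; 5 of the 8 members had such a window. Capitals mark any of 6 motifs searched on both strands: the TATA box as TATAAA, the pentamer CCAAT, the GC box as GGGCGG, the core of a cyclic AMP response element as TGACG, a C/EBP pattern as TTGCNNAA and an HNF4 core as AAAGTCC. Slc25a15 has 2 annotated starts, on the minus strand at chr8:22398572-22398871 and chr8:22398228-22398527, and Ass1 has 1, on the plus strand at chr2:31470020-31470319.
Slc25a15, upstream start: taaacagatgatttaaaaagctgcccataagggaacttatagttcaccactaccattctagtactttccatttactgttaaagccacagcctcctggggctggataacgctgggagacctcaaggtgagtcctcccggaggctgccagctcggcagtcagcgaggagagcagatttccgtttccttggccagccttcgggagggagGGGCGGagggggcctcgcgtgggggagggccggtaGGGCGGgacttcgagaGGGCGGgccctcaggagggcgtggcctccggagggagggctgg
Slc25a15, downstream start: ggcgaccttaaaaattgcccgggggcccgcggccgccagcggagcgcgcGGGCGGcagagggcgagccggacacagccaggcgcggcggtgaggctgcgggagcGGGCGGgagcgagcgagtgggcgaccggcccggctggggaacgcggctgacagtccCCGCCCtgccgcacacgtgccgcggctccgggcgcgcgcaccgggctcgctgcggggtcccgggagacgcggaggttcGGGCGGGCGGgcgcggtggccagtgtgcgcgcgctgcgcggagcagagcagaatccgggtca
Ass1: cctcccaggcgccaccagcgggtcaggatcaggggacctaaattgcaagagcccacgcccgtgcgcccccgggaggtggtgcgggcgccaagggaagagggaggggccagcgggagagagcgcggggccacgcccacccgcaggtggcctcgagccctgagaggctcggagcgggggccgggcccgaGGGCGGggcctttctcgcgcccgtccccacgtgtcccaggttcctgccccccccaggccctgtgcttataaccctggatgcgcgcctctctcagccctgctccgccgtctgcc

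Both Slc25a15 windows and the Ass1 window held GC boxes and none of the other 5 motifs. There were 3 GC boxes at the upstream and 5 at the downstream start of Slc25a15, of which the 2 nearest the downstream start overlap, and 1 in the Ass1 window. A GC box was present in 35.7% of all 32851 promoter windows of that length, so its presence here is common. The Nags window held 2 GC boxes and 1 cyclic AMP response element core (20.8% of all windows), the Slc25a13 window 1 CCAAT box (37.4%) and 1 such core, and the Otc window none of the 6. The TATA box, the C/EBP pattern and the HNF4 core, present in 13.6%, 10.8% and 4.21% of all windows, were in none of the 6 windows of the members. A match is a description of letters and not a measured binding site.

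Per length, the level (TMM-scaled CPM per kilobase of the spliced principal GENCODE transcript) was highest for Ass1 and Cps1, whose ranges overlapped. Ass1 had 953.8 ± 95.03 in MOCA and 1145 ± 303 in control livers and Cps1 942 ± 65.2 and 1042 ± 48.4 (SD, n = 4 each). Arg1 followed with 503.6 ± 22.8 in MOCA and 467 ± 41.9 in control livers, then Otc with 179.8 ± 15.9 and 189.0 ± 17.3, each separate from its neighbours over the 8 mice. Slc25a15 (130.2 ± 10.6 in MOCA, 109.8 ± 15.4 in control), Asl (104 ± 12.0 and 114 ± 11.6) and Slc25a13 (86.0 ± 9.06 and 86.1 ± 3.92) followed, the ranges of Slc25a15 and Asl overlapping and those of Asl and Slc25a13 likewise. Nags was lowest, at 23.4 ± 3.75 in MOCA and 21.5 ± 3.59 in control livers, so that the level of Cps1 was 44.2 times that of Nags over the 8 mice. The place of Otc depended on the length used: with the union of its annotated exons, 4241 against 2319 bases, it came after Slc25a15 and overlapped both its neighbours.

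Because the differences were small, the members were also set against Cps1 within each library, a ratio that no scaling of libraries can move; this was chosen after the values were seen and is a description. Arg1 was 15.5%, 13.9%, 13.3% and 14.3% of Cps1 in MOCA mice 1 to 4, against 11.7%, 12.9%, 11.7% and 11.4% in control mice 1 to 4. Slc25a15 was 10.4%, 7.3%, 8.36% and 8.32% of Cps1 in MOCA mice 1 to 4 and 5.41%, 6.82%, 6.78% and 6.96% in control mice 1 to 4. For these 2 of 7 genes every MOCA ratio was above every control ratio, which held for 14.7% of all tested genes. Cps1 itself was below every control mouse in 3 of 4 MOCA mice. The ratios of Otc, Ass1, Asl, Nags and Slc25a13 overlapped between the groups. Ass1, for example, was 30.9% ± 2.63 of Cps1 in MOCA and 33.3% ± 7.47 in control livers (SD, n = 4 each).

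**Figure D3:**
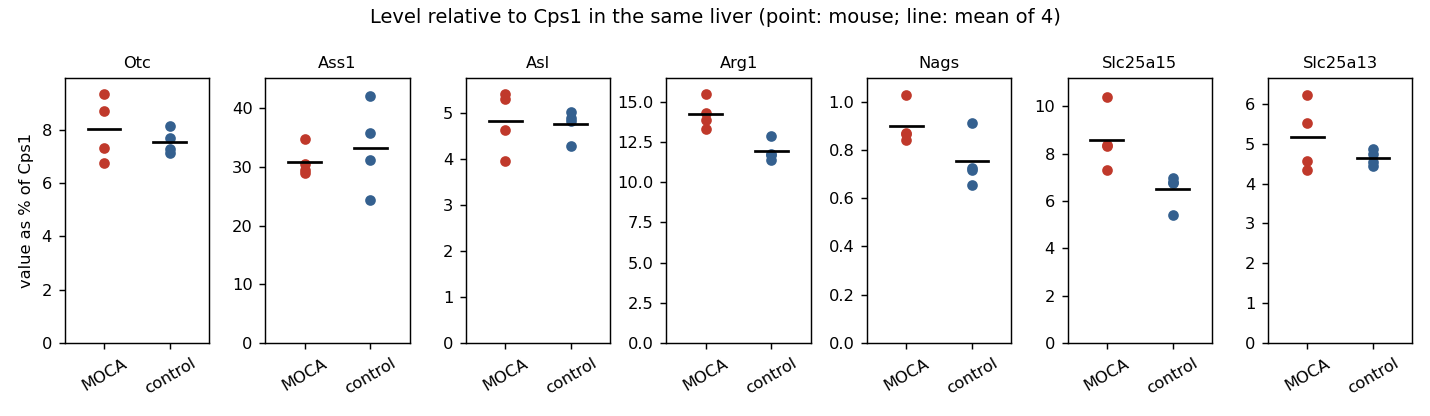
Value of each of 7 urea cycle genes as a percentage of Cps1 in the same liver (y axes from 0), for 4 MOCA mice (red, left) and 4 control mice (blue, right), with the mean of 4 as a line. Arg1 (13.3% to 15.5% in MOCA, 11.4% to 12.9% in control) and Slc25a15 (7.3% to 10.4% in MOCA, 5.41% to 6.96% in control) do not overlap, and the other 5 do.

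The members were low or high together in some control mice, and how common this is among other genes was not tested. The mean log2 difference of the 8 genes from the control mean was -0.02, 0.02, -0.09 and 0.04 in MOCA mice 1 to 4 and -0.18, 0.12, -0.06 and 0.11 in control mice 1 to 4. All MOCA mice thus lay within the control range. Control mice ranked the same way by the sum of all their values, 985987, 1072797, 992126 and 1026277 in mice 1 to 4. In MOCA mice 1 to 4 these sums were 1016268, 968602, 992852 and 950040, in another order than the members' means. Any part of library scaling in this was not tested. Control mouse 1 was the lowest of its group in 5 members (Otc, Ass1, Asl, Slc25a15 and Slc25a13) and the highest in none, whereas control mouse 2 was the highest in 4 (Cps1, Otc, Ass1 and Arg1) and control mouse 4 in the other 4. Among MOCA mice no animal was the lowest in more than 3 members. MOCA mouse 1 combined the lowest Cps1 and Ass1 of its group with the highest Slc25a15 and Slc25a13.

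**Figure D4:**
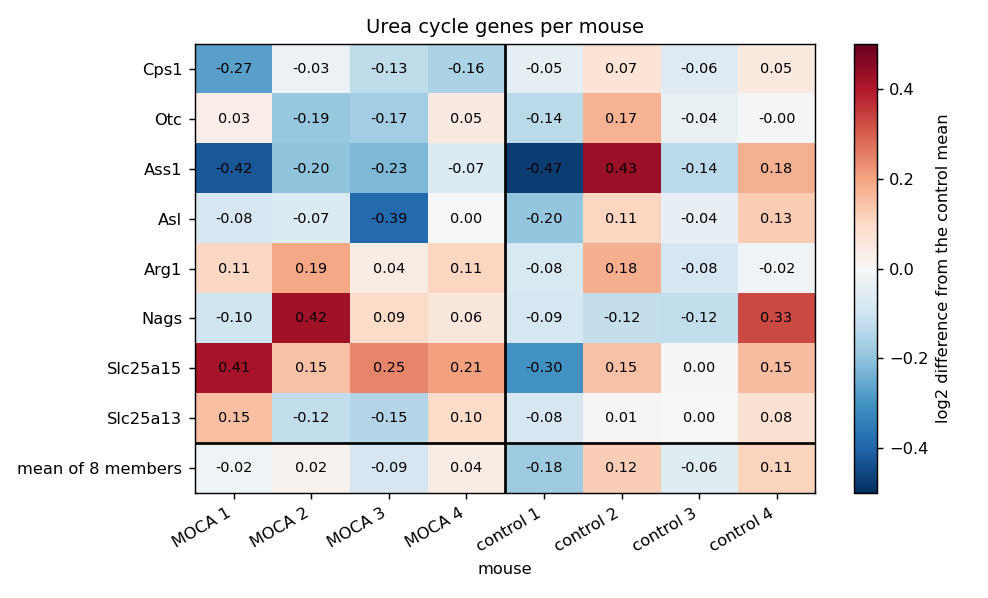
Log2 difference of each urea cycle gene (rows) from its control mean in each mouse (columns, MOCA left of the line and control right of it), with the mean of the 8 genes in the bottom row. Slc25a15 is positive in all 4 MOCA mice (0.15 to 0.41). It is also positive in control mice 2, 3 and 4 (0.15, 0.0044 and 0.15) and is -0.30 in control mouse 1. Ass1 runs from -0.47 in control mouse 1 to 0.43 in control mouse 2.

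The spread between mice within a group was uneven among the members. On the log2 scale the within-group SD was 0.30 for Ass1 and 0.22 for Nags, larger than in 91.8% and 78.7% of tested genes, and 0.09 for Cps1 and 0.10 for Arg1, larger than in 12.0% and 19.4%. The median over all tested genes was 0.15. These ranks were not matched for level. The mean level exceeded that of 99.9% of tested genes for Cps1, 99.5% for Ass1, 98.7% for Arg1 and 73.5% for Nags. With the group means removed, Ass1 and Asl followed the mean of the other 7 members most closely over the 8 mice (Pearson r = 0.83 for each), and Nags least (r = 0.15). Of the 12000 other tested genes, those most like the mean profile of the members were the glucose transporter gene Slc2a8 (r = 0.99), Sdhd, a subunit of succinate dehydrogenase (0.99), the gluconate kinase gene Idnk (0.98), Mea1 (0.98) and the peptidase gene Pepd (0.98). Without control mice 1 and 2, the farthest from the median, r was 0.95 to 0.98 for these 5. They were picked as the highest of many, and mice share their libraries' depth and scaling, so these r values are a description only.

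Genes around the cycle were examined from 8 lists with 98 genes in all, of which 91 could be tested. Of these, limma called 0 higher and 1 lower (Pigr), 14 had an unadjusted p under 0.05, and edgeR called 1 and DESeq2 6. Over all tested genes, limma called 0.666%, edgeR 0.675% and DESeq2 3.61%, and 17.5% had an unadjusted limma p under 0.05. MOCA and control values did not overlap in 10.5% of all tested genes. The counts and separated groups given below for single lists and genes stand beside these shares. Among the 91 genes the log2 fold change was positive in 33 and negative in 58, with a median of -0.06, against 6140 positive and 5868 negative over all tested genes.

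Among genes of ammonia and glutamine handling, 0 of 11 tested were called by limma or edgeR and 1 by DESeq2, 1 had an unadjusted limma p under 0.05, and 9 were negative. Prodh2, a hydroxyproline dehydrogenase, had the smallest p of the list: it was 155, 127, 146 and 142 in MOCA mice 1 to 4 and 168, 196, 172 and 185 in control mice 1 to 4. Every MOCA value was below every control value, with a log2 fold change of -0.34 (SE 0.08, limma adjusted p = 0.073, DESeq2 adjusted p = 0.00658). Gls2, the glutaminase of periportal liver, which releases ammonia from glutamine, had a log2 fold change of -0.26 (limma adjusted p = 0.334). Glul, the glutamine synthetase of pericentral hepatocytes, was 785 ± 87.9 in MOCA and 798 ± 58.1 in control livers (SD, n = 4 each; log2 fold change -0.03, which was positive with columns scaled to equal sums). Glud1, the glutamate dehydrogenase that supplies ammonia, and Car5a, the mitochondrial carbonic anhydrase that supplies bicarbonate, had log2 fold changes of -0.09 and 0.03 (limma adjusted p = 0.674 and 0.925).

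For aspartate and the malate shuttle, 0 of 12 genes were called by limma, edgeR or DESeq2, 1 had an unadjusted p under 0.05, and 7 were positive. That 1 gene was Pcx, pyruvate carboxylase, at 634 ± 43.2 in MOCA and 739 ± 36.1 in control livers (SD, n = 4 each; log2 fold change -0.22, SE 0.08, limma adjusted p = 0.181). Slc25a22, a mitochondrial glutamate carrier, was 323, 224, 249.9 and 226 in MOCA mice 1 to 4 and 216, 225, 201 and 229.9 in control mice 1 to 4, with the highest value in MOCA mouse 1 (log2 fold change 0.21, limma adjusted p = 0.342, and 0.10 without that mouse). The aspartate aminotransferases Got1 and Got2 had log2 fold changes of 0.18 and 0.02 (limma adjusted p = 0.54 and 0.901). For Got1 leaving out 1 mouse gave 0.09 (MOCA mouse 4) to 0.31 (MOCA mouse 3), and for Got2 it turned the sign without control mouse 3 (-0.03).

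Of the amino acid and urea transporters, 9 of 12 were tested, none was called by limma, edgeR or DESeq2 and 1 had an unadjusted p under 0.05. This was Slc38a2, a transporter of neutral amino acids, with 319, 284, 267 and 172 in MOCA mice 1 to 4 and 277, 436, 524 and 291 in control mice 1 to 4, a log2 fold change of -0.53 (SE 0.22) with a 95% interval from -1.02 to -0.04, which did not pass in limma after adjustment and was -0.35 without MOCA mouse 4. Slc7a2, which carries cationic amino acids such as arginine into hepatocytes, was 611 ± 40.8 in MOCA and 539.9 ± 110.0 in control livers (SD, n = 4 each; log2 fold change 0.20, limma adjusted p = 0.458). Slc38a3, a glutamine transporter, had 1000.2 ± 104 in MOCA and 1034 ± 46.2 in control livers (limma adjusted p = 0.807), and the negative sign of its log2 fold change (-0.05) turned with equal column sums. Slc14a1, Slc25a2 and Slc38a5 were listed below the minimum for testing.

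Genes that use arginine and ornithine held 0 limma or edgeR calls among 11 tested, 2 unadjusted p under 0.05 and 1 DESeq2 call. The called gene was Azin1, antizyme inhibitor, which spares ornithine decarboxylase from degradation. It was 81.3, 70.0, 71.9 and 82.2 in MOCA mice 1 to 4 and 53.7, 54.9, 57.8 and 63.9 in control mice 1 to 4, every MOCA value above every control value, with a log2 fold change of 0.40 (SE 0.08, limma adjusted p = 0.0578, DESeq2 adjusted p = 0.00271). Odc1, the ornithine decarboxylase itself, was 43.7 ± 1.82 in MOCA and 38.7 ± 4.26 in control livers (SD, n = 4 each; log2 fold change 0.17, limma adjusted p = 0.309). Ddah1, which breaks down methylated arginine, had a log2 fold change of -0.29 (SE 0.11, limma adjusted p = 0.210). Arg2, the mitochondrial arginase, was untested, with 1.1 ± 0.406 in MOCA and 0.891 ± 0.305 in control livers.

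Amino acid breakdown held 0 limma or edgeR calls among 23 tested genes, 4 unadjusted p under 0.05 and 2 DESeq2 calls, with 15 negative log2 fold changes. Kmo, kynurenine monooxygenase of tryptophan breakdown, was 266, 259, 235 and 259.6 in MOCA mice 1 to 4 and 188, 223, 178 and 217 in control mice 1 to 4. Every MOCA value was above every control value (log2 fold change 0.34, SE 0.09, limma adjusted p = 0.0872, DESeq2 adjusted p = 0.0141). Gnmt, glycine N-methyltransferase, was 1152, 1109.7, 970.2 and 1166 in MOCA mice 1 to 4 and 1123, 1766, 1462 and 1459.8 in control mice 1 to 4 (log2 fold change -0.39, SE 0.13, limma adjusted p = 0.166, DESeq2 adjusted p = 0.0426).

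Of 11 regulators of the cycle or of hepatocyte amino acid metabolism, none was called by limma, edgeR or DESeq2, 1 had an unadjusted p under 0.05 and 8 were negative. That gene was Sirt3, a mitochondrial deacetylase, with 58.8 ± 6.63 in MOCA and 71.9 ± 5.94 in control livers (SD, n = 4 each; log2 fold change -0.29, SE 0.09, limma adjusted p = 0.158). Sirt5, which activates carbamoyl phosphate synthetase by removing acyl groups, had 6.50 ± 0.571 in MOCA and 5.71 ± 0.989 in control livers (limma adjusted p = 0.509). Hnf4a, Cebpa and the glucagon receptor gene Gcgr, which drive or relay the signals that set these enzymes, had log2 fold changes of -0.20, -0.15 and -0.09 (limma adjusted p = 0.442, 0.371 and 0.46). Hnf4a was at -0.08 without MOCA mouse 4 and Cebpa at -0.10 without MOCA mouse 3. Every MOCA value of Gcgr lay below every control value, at an unadjusted limma p of 0.152. Groups did not overlap, in either direction, in 10.5% of all tested genes. Klf15, a factor of amino acid breakdown in fasting, had -0.26 (limma adjusted p = 0.33), and Ppargc1a, a coactivator of the fasting response, 0.01 (limma adjusted p = 0.98), which was negative with upper quartile scaling.

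The liver zones were compared because the cycle is periportal and glutamine synthesis pericentral. Of 10 periportal genes, 0 were higher and 1 was lower (2 unadjusted p under 0.05; edgeR and DESeq2 1 each): Pigr, which encodes the polymeric immunoglobulin receptor, with 1982, 1859, 1868 and 1659 in MOCA mice 1 to 4 and 2364, 2902, 2777 and 2678 in control mice 1 to 4. Its log2 fold change was -0.54 (SE 0.10, limma adjusted p = 0.0344), and the call was lost without any 1 of MOCA mice 2, 3 and 4 or control mice 2, 3 and 4 (adjusted p 0.0662 to 0.123), without a filter on low values (0.0619) and with the replicate number as a block (0.105). Cdh1, E-cadherin, had 0.38 (limma adjusted p = 0.254). Limma and edgeR called 0 of 11 pericentral genes, 2 had an unadjusted p under 0.05, and DESeq2 called 1, the Wnt target Lgr5. Lgr5 was 5.52 ± 0.428 in MOCA and 8.63 ± 2.19 in control livers, without overlap (SD, n = 4 each; log2 fold change -0.54, limma adjusted p = 0.12, DESeq2 adjusted p = 0.0310), and the alcohol-oxidising P450 Cyp2e1 had -0.25 (limma adjusted p = 0.283). The median log2 fold change was -0.15 for the periportal and -0.05 for the pericentral list, and whether the lists differ was not tested.

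**Figure D5:**
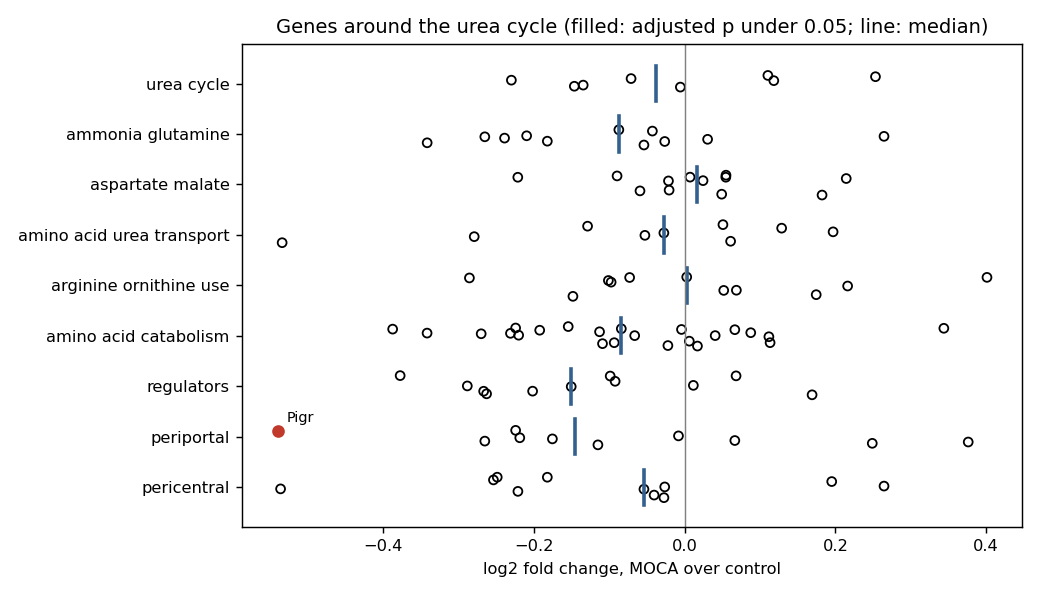
Log2 fold change (MOCA over control, x axis) of each tested gene of the urea cycle and of 8 lists around it, with the median of a list as a blue line and genes past a limma adjusted p of 0.05 filled. The 8 urea cycle genes lie between -0.23 and 0.25, and Pigr (-0.54) is the single filled point.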

How the data were processed

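Liver RNA (200 ng per library) was depleted of ribosomal RNA and sequenced from directional libraries, per the labels' protocols. The build mm10 and the tools edgeR, RSEM, Bowtie2 and Trimmomatic 0.38 were used, per the submitters' processing notes, which state no role or order. The authors deposited 1 table of scaled signal per gene; dividing each column by its smallest step gave whole reads for 100% of values (tolerance 0.001), and the step equals that of TMM-scaled CPM recomputed with edgeR (largest relative difference 7.17e-07). Columns were matched to mice by the number in their labels; 0 columns were left unused.

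A gene was tested if 4 or more libraries reached a value of 1. The test was limma 3.58.1 (R 4.3.3; log2(value + 1), eBayes with trend, MOCA against control over all 8 libraries, no covariate) and Benjamini-Hochberg adjustment over all of them. Fold changes are on that scale, which understates low genes. The edgeR 4.0.16 quasi-likelihood test and DESeq2 1.42.0 were alternatives on the recovered reads of the same genes, beside other pseudocounts, filters, scalings, eBayes settings, sample weights, a replicate block and leaving out each mouse. Only the main limma fit was tested on simulated data, with changes larger than those of any member. That test does not show how it would find changes as small as theirs. To look for duplicated libraries, replicates of a group were compared: chi-square per degree of freedom was 12.5 to 26.9 over these pairs, so none was a duplicate within counting noise.

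The members, lists and tests were chosen with earlier results of these data known. Named are all members, for each list its called genes and its 2 smallest p, 16 genes whatever their change, and the 5 genes most like the members' mean profile. One gene that this rule names is not reported here. Positions are RefSeq gene records of GRCm38.p6; lengths are from GENCODE M21. Depth intervals cover counting error only and are not given, since the spread between mice is larger.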

Additional observations from a re-analysis of the deposited data

Results flagged for a closer look

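One value stood apart from its group. Nags in control mouse 4 was 54.5, while the other 3 control mice had 39.6 to 40.6, a gap of 0.937 of the group's range, above Dixon's critical value for 4 samples. It was the single value so marked in 78 groups of 4 mice looked at, and chance marks about 1 group in 20. These were each member and each gene named from the lists around the cycle, in each treatment group. The genes picked as most like the members' mean profile were not among them. MOCA mouse 2, at 58.1, was the highest of all for Nags.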

How the results depend on the processing

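No urea cycle gene was called under any alternative run, including an adjusted p under 0.1; the smallest adjusted p of a member was 0.108, for Slc25a15 with columns scaled to equal sums. Leaving out each mouse gave 0 called members in every case. The sign of Slc25a13 (-0.0056) became positive with equal column sums (0.0477) and when MOCA mouse 2 or 3 or control mouse 4 was left out (-0.0581 to 0.041 over all 8 mice), while the other 7 members kept their sign in every alternative. Equal column sums moved the median of all genes by 0.05. The count of related genes called, 1, was 0 without a filter and with the replicate block, 2 with robust eBayes, 3 with equal column sums, 4 at an adjusted p under 0.1 and 6 with DESeq2, and 0 to 1 when each mouse was left out. Over all genes, 80 calls (48 higher, 32 lower) became 171 with equal column sums (132 and 39), 96 with upper quartile scaling (45 and 51), 425 with DESeq2, 319 at an adjusted p under 0.1, 30 with the replicate block, and 28 to 77 when each mouse was left out; the causes were not tested. Azin1 passed with equal column sums, robust eBayes and DESeq2, Kmo with equal column sums and DESeq2, and Prodh2, Gnmt and Lgr5 with DESeq2; Pigr did not pass without a filter or with the block. Among related genes near 0 the sign turned with equal column sums for Glul (0.0271), Slc25a12 (0.0281) and Slc38a3 (0.00090) and with upper quartile scaling for Ppargc1a (-0.0057). Leaving out 1 mouse turned the sign of Glul (-0.088 to 0.0242), Car5a (-0.0649 to 0.1367), Got2 (-0.0279 to 0.0583), Slc25a12 (-0.0826 to 0.0303) and Ppargc1a (-0.0747 to 0.1749).

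Mice of both groups carry the numbers 1 to 4, but same-numbered mice did not deviate together (correlations of -0.07, -0.0014, 0.04 and -0.04 over tested genes for numbers 1 to 4), and 0 of the 8 libraries correlated best with its own number. With the replicate block 0 members were called.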
